A study of Mus musculus with 8 samples.

Results

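The replication-dependent histone genes of mouse were examined in ID8-OR cells, an ID8 mouse ovarian cancer line that resists olaparib. The members are the 70 rows of the count table whose symbol starts with Hist1h, Hist2h, Hist3h or Hist4h, and the 24 rows whose exons overlap at least 50 bases of an exon of such a gene on the other strand, 94 of 54146 rows in all. Every library came from resistant cells kept for 72 hours with DMSO (the solvent control), with olaparib, an inhibitor of PARP enzymes, with EZM8266, which the labels describe as an inhibitor of the histone H3 lysine 9 methyltransferases EHMT1 and EHMT2, or with the combination of olaparib and EZM8266, and each of the 4 groups holds 2 libraries. The title of combination replicate 2 gives EZM8266 and its treatment label reads EZM8267, and it was kept in the group of its title. The labels do not say whether the 2 libraries of a group came from separate cultures, and the p-values speak only for the variation among these 8 libraries, which may be technical.

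Replication-dependent histone genes encode the linker histone H1 and the core histones H2A, H2B, H3 and H4, which package newly copied DNA. They lie in clusters, have no introns in their classical form, are transcribed mainly in S phase, and their mRNAs end at a conserved stem-loop rather than in a poly(A) tail. Many copies of 1 family encode the same or nearly the same protein, so their sequences are hard to tell apart.

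Each histone gene was read in a pair of ways. The libraries were made with a kit that marks the strand with dUTP, and the counting took the first read of a pair to share the strand of the row, whereas in such a library it lies opposite to the transcript, so a row counts mainly fragments of the other strand. A row annotated opposite to a histone gene therefore counts fragments on the strand of the histone gene, here called the histone strand. The row that carries the histone gene's own name is read as counting fragments on the other strand. It can also take fragments of the histone strand that were assigned to the wrong strand, here called leakage. The 24 opposite rows, 19 of them annotated as microRNAs and 5 as antisense genes, cover 23 of the 70 histone genes, including all 20 H2A genes. The other 47 genes, with all 6 H1 genes among them, have no opposite row, and their own strand was not measured. Of the 70 histone gene rows, 56 lie on chromosome 13, 10 on chromosome 3, 3 on chromosome 11 and 1 on chromosome 6.

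The 19 rows annotated as microRNAs are short windows of 129 to 144 bases, and 16 of them lie inside the coding sequence of an H2A gene. The commonest window starts at base 246 of the coding sequence, counted from the A of the start codon, and ends at base 383. The windows of 4 genes are printed because they show how little separates the H2A copies that were counted apart. They are in mm10 at chr13:21753445-21753582 on the minus strand (Hist1h2ak), chr13:23751378-23751515 on the plus strand (Hist1h2ab), chr11:58954983-58955120 on the plus strand (Hist3h2a) and chr3:96245826-96245963 on the plus strand (Hist2h2aa1), and capitals mark bases that differ from Hist1h2ak.
Hist1h2ak: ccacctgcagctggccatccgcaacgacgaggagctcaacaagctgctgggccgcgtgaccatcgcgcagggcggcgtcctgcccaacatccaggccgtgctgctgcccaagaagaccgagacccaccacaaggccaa
Hist1h2ab: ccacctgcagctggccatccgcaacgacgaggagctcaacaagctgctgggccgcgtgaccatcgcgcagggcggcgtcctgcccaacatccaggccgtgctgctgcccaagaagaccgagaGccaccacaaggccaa
Hist3h2a: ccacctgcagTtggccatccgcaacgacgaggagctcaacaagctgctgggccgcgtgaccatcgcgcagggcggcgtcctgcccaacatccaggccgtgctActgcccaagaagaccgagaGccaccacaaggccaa
Hist2h2aa1: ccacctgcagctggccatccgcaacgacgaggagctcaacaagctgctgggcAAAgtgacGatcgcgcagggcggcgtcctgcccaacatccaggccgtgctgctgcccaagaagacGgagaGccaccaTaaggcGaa
The sequences are those of the histone strand, 5′ to 3′, from the GENCODE M21 transcripts. Counted from 1 at the first base of the window, Hist1h2ab differs from Hist1h2ak by C123G alone, and Hist3h2a by C11T, G103A and C123G. Hist2h2aa1 has 8 differences, among them C53A, G54A, C55A and C123G. The Hist1h2ab sequence is the whole window of 8 genes (Hist1h2ab, Hist1h2ac, Hist1h2ad, Hist1h2ae, Hist1h2ag, Hist1h2ai, Hist1h2ao and Hist1h2ap), and 9 histone genes hold it, since it also lies in the transcript of Hist1h2ah, whose window has other bounds. The Hist2h2aa1 sequence is the window of 3 genes (Hist2h2aa1, Hist2h2aa2 and the pseudogene Hist1h2al). The window of Hist1h2an is placed elsewhere in the coding sequence, and its sequence lies in 10 other H2A genes. No run of 50 bases in 13 of the 19 windows is unique among the annotated transcripts.

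The stem-loop that replaces the poly(A) tail is a motif of 16 bases. It was searched on the transcript strand with 3 positions of the motif left free, and 42 of the 70 histone genes (60%) held it in an annotated transcript, against 5 of 55380 other genes (0.00903%). Stretches of 3 genes are printed with the motif in capitals, because they show the forms that recur.
Hist2h2aa1: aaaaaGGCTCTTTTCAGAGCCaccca
Hist1h3f: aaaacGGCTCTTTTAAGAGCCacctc
Hist1h4d: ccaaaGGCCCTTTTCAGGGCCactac
The form of Hist2h2aa1 was found in 26 genes, that of Hist1h4d in 7 and that of Hist1h3f in 6. The others were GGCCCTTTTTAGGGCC in 2 genes and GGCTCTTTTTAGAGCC in 1. Of the 28 genes without a match, 16 have an annotation that ends at the stop codon or holds no coding sequence. Where it ends at the stop codon, the search did not reach the place where the motif would lie. In 4 others the annotation runs 1 to 59 bases past the stop, and in 8 it runs 60 bases or more and still held no match.

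The opposite rows held more counts than the rows of the histone genes. Summed without the 2 rows nested in another member, the opposite rows took 1.46% (olaparib replicate 1) to 2.15% (EZM8266 replicate 2) of all counts of a library. This sum is not histone sequence alone. In DMSO, Gm20628 had a mean of 5800 CPM and 4930558J22Rik of 3280, beside 9376 for the H2A rows together. Exons of histone genes make up 15.2% and 11.9% of the exon bases of Gm20628 and 15.1% of those of 4930558J22Rik. The 70 rows of the histone genes themselves took 0.112% to 0.192%. Library totals ran from 973382 to 1680974 counts, and a floor of 3 counts stood at 1.78 to 3.08 CPM (counts scaled to a common library total). Only 4.54% to 5.40% of the 19743299 to 30329847 fragments of a library were assigned to a row. Shares and CPM are relative to the counts in rows and not to all RNA of the cells. In the 17 windows with a tested row, the histone gene's own row made up 0.127% to 2.8% (median 0.55%) of both readings per kilobase. These 2 densities are not alike. A fragment that reaches into a short window by 1 base is counted, which raises the window's value per kilobase. The own row is divided by all exon bases of the gene, so the share is likely too low. The measure of strand leakage described below was 1.04% to 1.68% in these libraries. How much of the own rows is leaked histone strand was not tested.

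The highest opposite row was Gm20628, which covers all exon bases of Hist2h3b and of Hist2h2bb, an H3 and an H2B gene on chromosome 3. Its TMM-scaled level was 5923 and 5677 CPM (DMSO), 5368 and 5044 (olaparib), 5143 and 5197 (EZM8266) and 5354 and 4640.3 (combination). Both DMSO libraries were above the 6 treated libraries. The exons of these 2 genes make up 15.2% and 11.9% of the exon bases of Gm20628, so its counts cannot be given to the histone genes alone.

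The next was 4930558J22Rik, whose exons overlap 223 bases of Hist1h4b, a gene for histone H4. It measured 3593 and 2967 CPM (DMSO), 3063 and 3365 (olaparib), 3049 and 3641 (EZM8266) and 3293 and 3116 (combination). The groups overlapped, and the highest library was 1.23 times the lowest. The overlap with Hist1h4b is 15.1% of the exon bases of that row.

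Among the H2A windows, which lie wholly over 1 gene or nearly so, Hist1h2ak (Gm44454) was the highest, at 2568 and 2263 CPM (DMSO), 2518 and 2567 (olaparib), 2292 and 3241 (EZM8266) and 2462 and 2527 (combination). EZM8266 replicate 2 stood above the other 7 libraries, and the groups overlapped. The Hist1h2ab window (Gm44484), 1 base different, measured 1048 and 903 CPM (DMSO), 903 and 989 (olaparib), 847 and 1318 (EZM8266) and 990.1 and 1172 (combination). EZM8266 replicate 2 was again the highest library, and EZM8266 replicate 1 was the lowest.

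The 8 windows with the Hist1h2ab sequence spanned 62.2 CPM (Hist1h2ao) to 1021 CPM (Hist1h2ab), a 16.4-fold range, and since the windows have 1 length the range is the same per kilobase, 451 to 7400 CPM. Between these ends lay the windows of Hist1h2ag at 827 CPM, Hist1h2ae at 658, Hist1h2ap at 381, Hist1h2ai at 206, Hist1h2ac at 177 and Hist1h2ad at 131. A fragment was counted if it reached into a window by 1 base, so bases outside the window can place it, and the files do not show how fragments with several equal matches were treated. The levels are therefore given as the counts of these rows and not as the expression of single genes. Hist3h2a (Gm44313) stood at 741 CPM, Hist1h2ah (Gm44390) at 719.7, Hist1h2an (Gm44346) at 634, Hist2h2ac (Gm44492) at 439.7 and Hist1h2aj (Gm44357) at 233.

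The windows of 2 genes did not pass the filter on low counts. The row opposite Hist1h2aa, an H2A variant gene known from testis, had a mean of 0.544 CPM, and the row opposite the pseudogene Hist1h2al had 4.27 CPM. There were 4 histone gene rows at 0 in every library, those of Hist1h2aa and Hist1h2al and those of Hist1h1t and Hist1h2ba, which encode testis forms of H1 and H2B.

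**Figure D1:**
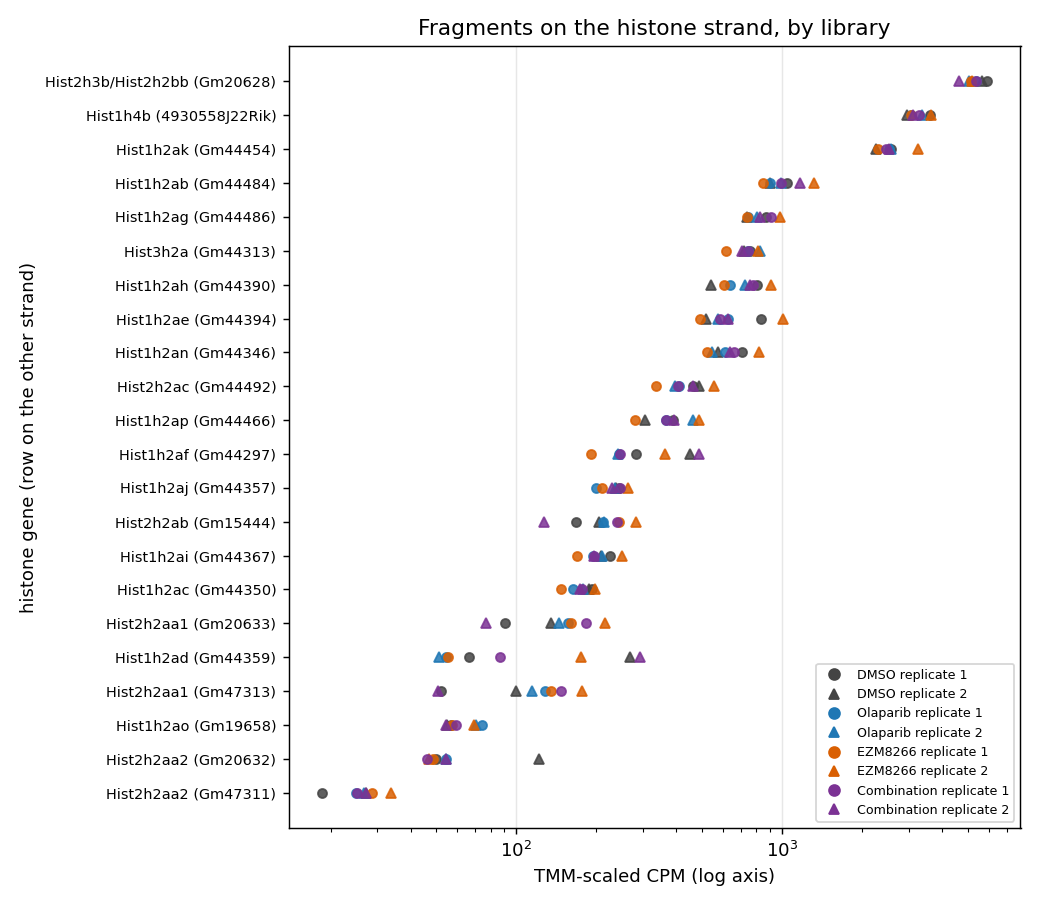
TMM-scaled CPM on a log axis (x) of the 22 tested rows that count the histone strand (y, named by histone gene with the row in parentheses), 1 point per library, colour for the treatment and shape for the replicate. Most rows span less than a factor of 2 between libraries. Gm44359, opposite Hist1h2ad, spreads from 51.2 to 292 CPM.

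None of the 22 tested opposite rows was called in any comparison against DMSO. Calls were made with edgeR's quasi-likelihood test at a Benjamini-Hochberg adjusted p under 0.05 over 6379 rows. Over all rows tested, 0% were called for olaparib, 0.204% for EZM8266 and 0.219% for the combination. The median log2 fold change of the 22 rows was -0.05 for olaparib, 0.08 for EZM8266 and 0.00 for the combination, beside medians of -0.01, -0.02 and -0.02 over all rows. Of the 22, 9, 13 and 11 were above 0, beside 48.4%, 47.2% and 47.0% of all rows. At an unadjusted p under 0.05 there were 2, 4 and 1 of 22, and 1.83%, 5.72% and 4.89% of all rows. This depended on the model: with the replicate number as a block and the DMSO numbers crossed, a setting added after the data were seen, 3 opposite rows were called for EZM8266 (Gm47313 and Gm20633 higher, Gm20632 lower), and without a filter on low counts 1 was called for olaparib and 1 for EZM8266.

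The intervals set how large a difference these libraries leave room for. The 95% interval of the log2 fold change lay within 1 on either side of 0 for 17 of 22 rows for olaparib, 16 for EZM8266 and 19 for the combination. For Hist1h2ak the intervals were -0.24 to 0.39, -0.12 to 0.51 and -0.27 to 0.37. For Hist1h2ab they were -0.43 to 0.34, -0.23 to 0.53 and -0.23 to 0.53. For Gm20628, lower in each treated group, the log2 fold changes were -0.16 ± 0.11, -0.17 ± 0.11 and -0.21 ± 0.11 (SE), with adjusted p of 0.999, 0.906 and 0.973 in edgeR's test, and each interval included 0. The 3 comparisons share the DMSO libraries.

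Rows whose groups did not overlap were counted in each direction. Higher than both DMSO libraries were both libraries of olaparib in 4 of 22 rows (all rows 15.1%), of EZM8266 in 5 (all rows 16.2%) and of the combination in 0 (all rows 17.1%). Lower were 6, 2 and 4, beside 15.6%, 15.6% and 18.8% of all rows.

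**Figure D2:**
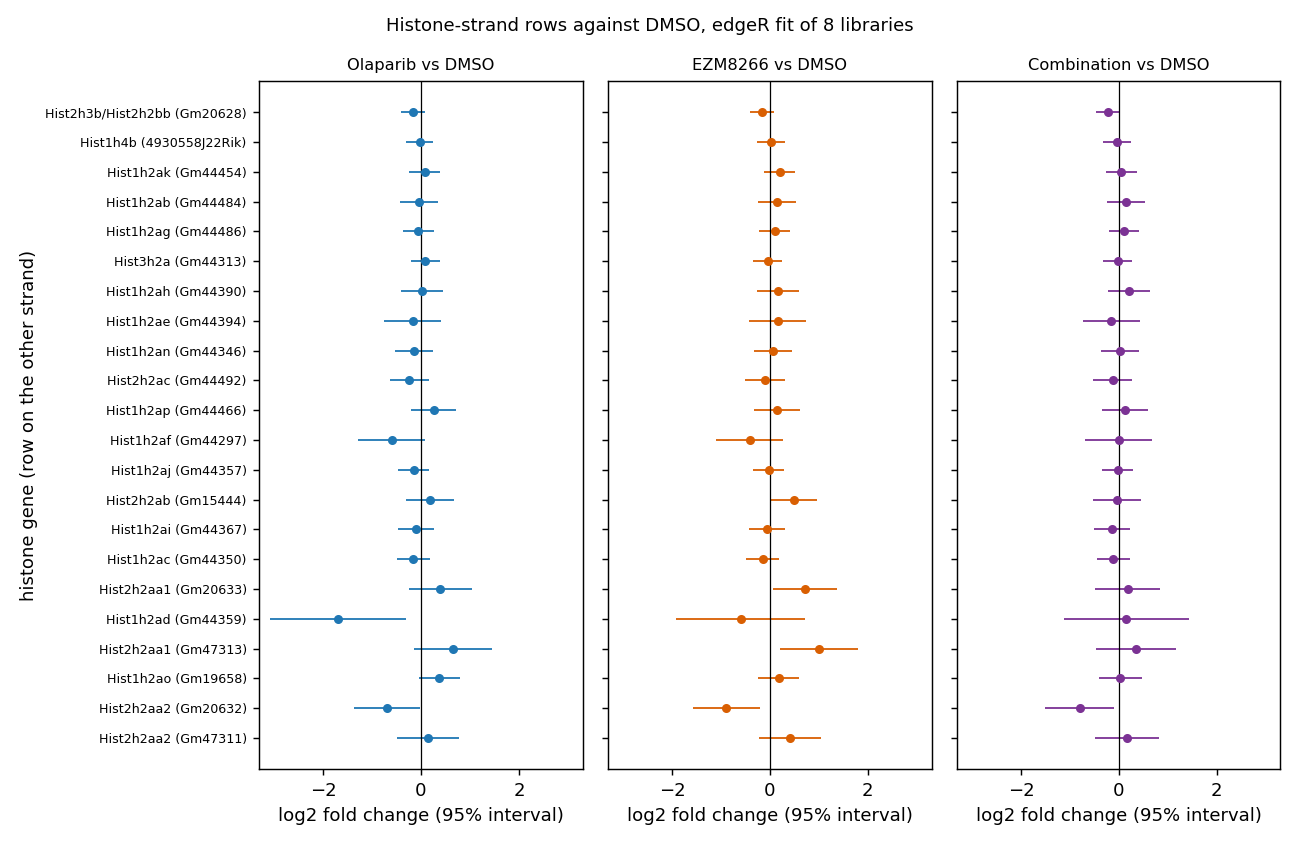
Log2 fold change against DMSO with its 95% interval (x) for the 22 tested opposite rows (y, in order of level) in the olaparib, EZM8266 and combination groups, from 1 edgeR fit of 8 libraries. The upper rows have narrow intervals around 0, and Gm44359, opposite Hist1h2ad, has the widest, -3.08 to -0.31 with olaparib.

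The window of Hist1h2ad on chromosome 13 (Gm44359) spread most, with a highest library 5.71 times the lowest, followed by that of Hist2h2aa1 on chromosome 3 (Gm47313) with 3.47 times. Hist1h2ad measured 66.6 and 267 CPM (DMSO), 54.4 and 51.2 (olaparib), 55.2 and 175 (EZM8266) and 86.6 and 292 (combination). DMSO replicate 2, EZM8266 replicate 2 and combination replicate 2 were high and the other 5 libraries low, so each of these 3 groups holds 1 high and 1 low library. The log2 fold change was -1.69 ± 0.64 (SE) with olaparib (unadjusted p = 0.0205, adjusted p = 0.999, edgeR), and -0.33 without DMSO replicate 2. With EZM8266 it was -0.60 ± 0.61 and with the combination 0.15 ± 0.59, and without DMSO replicate 2 these became 0.76 and 1.51.

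Hist1h2af (Gm44297), whose window starts at base 204 of the coding sequence, measured 283 and 449 CPM (DMSO), 244 and 242 (olaparib), 191 and 363 (EZM8266) and 245 and 486 (combination). The same 3 libraries were the highest. Its log2 fold changes against DMSO were -0.60 ± 0.32, -0.42 ± 0.32 and -0.01 ± 0.31 with olaparib, EZM8266 and the combination.

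On chromosome 3, Hist2h2aa1 and Hist2h2aa2 lie apart by a few kilobases, and their identical windows were counted as separate rows. The Hist2h2aa1 window (Gm47313) measured 51.9 and 99.4 CPM (DMSO), 128 and 115 (olaparib), 135 and 176 (EZM8266) and 147 and 50.7 (combination). DMSO replicate 1 and combination replicate 2 were the lowest, and both EZM8266 libraries were above both DMSO libraries. Its log2 fold change with EZM8266 was 1.00 ± 0.37 (unadjusted p = 0.0175, adjusted p = 0.797, edgeR). It was 0.65 ± 0.37 with olaparib and 0.35 ± 0.38 with the combination, and the last became -0.60 without combination replicate 1. The longer row Gm20633, in which this window is nested, had 0.71 ± 0.30 with EZM8266 (adjusted p = 0.825, edgeR) and shares its fragments.

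The Hist2h2aa2 window (Gm47311) measured 18.6 and 27.2 CPM (DMSO), 25.0 and 26.8 (olaparib), 28.8 and 33.8 (EZM8266) and 25.2 and 27.3 (combination). DMSO replicate 1 was the lowest library and both EZM8266 libraries were above the other 6. Its log2 fold changes were 0.15 ± 0.29, 0.41 ± 0.29 and 0.17 ± 0.30 for the same 3 comparisons, of the same sign as those of the Hist2h2aa1 window, and the difference between the 2 windows was not tested. The longer row that contains it, Gm20632, measured 49.9 and 122 CPM (DMSO), 54.4 and 54.5 (olaparib), 48.4 and 46.7 (EZM8266) and 46.3 and 54.6 (combination), with DMSO replicate 2 alone high. In the order olaparib, EZM8266 and combination, its log2 fold changes were -0.69 ± 0.31, -0.89 ± 0.32 and -0.80 ± 0.32 (adjusted p of 0.999, 0.797 and 0.960, edgeR). Without DMSO replicate 2 they were 0.13, -0.07 and 0.02.

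Hist2h2ab, an H2A gene close by, is read by the antisense row Gm15444, which overlaps it by 303 bases. It measured 167 and 204 CPM (DMSO), 211 and 213 (olaparib), 243 and 281 (EZM8266) and 239 and 127 (combination). As for Hist2h2aa1, combination replicate 2 was the lowest library and EZM8266 replicate 2 the highest. The log2 fold change with EZM8266 was 0.49 ± 0.22 (unadjusted p = 0.0476, adjusted p = 0.854, edgeR), and with the combination it was -0.03 ± 0.23.

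Group means are given for some of the remaining H2A windows, none of which was called. The Hist1h2ao window (Gm19658) had 55.9 ± 1.30 CPM (DMSO, SD, n = 2), 72.5 ± 2.52 (olaparib), 63.6 ± 8.57 (EZM8266) and 57.0 ± 3.43 (combination). Both its olaparib libraries, at 74.3 and 70.7 CPM, were above all other libraries. Hist3h2a had group means of 739 ± 30.0 CPM (DMSO, SD, n = 2), 785 ± 57.7 (olaparib), 716 ± 141 (EZM8266) and 726 ± 26.0 (combination). Hist1h2aj had 241 ± 3.20, 218 ± 25.8, 237 ± 36.4 and 237 ± 11.1 CPM in the same order. Hist1h2ae had 676 ± 223, 599 ± 36.3, 752 ± 368 and 604 ± 28.0 CPM, and its DMSO libraries, like its EZM8266 libraries, differed by more than any 2 group means. Of the 22 rows, 9 had a highest library under 1.5 times the lowest, 6 had one of 1.5 to 2 times, and 7 at least 2 times.

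Taken over both levels of the other compound, neither compound had a called opposite row. The average effect of EZM8266, 4 libraries with it against 4 without, had a median of 0.08 with 16 of 22 rows above 0. Over all rows the median was -0.02, with 47.4% above 0 and 0.658% called. The average effect of olaparib had a median of -0.06 with 4 of 22 above 0. Over all rows its median was -0.01, with 48.2% above 0 and 0% called. For both, the interval lay within 1 of 0 on the log2 scale in 21 of 22 rows. Libraries with EZM8266 carry sample numbers 33 to 36 and those without it 41 to 44, so the block of samples and EZM8266 cannot be told apart.

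The combination did not differ from either compound alone in a called member row. Against olaparib the median of the opposite rows was 0.00 (0.0941% of all rows called), and against EZM8266 it was -0.04 (0% called). The interaction, which asks whether the effect of 1 compound depends on the other, had a median of 0.01 and no call among the members (0% of all rows). At an unadjusted p under 0.05 the interaction held 5 of 22 opposite rows, those of Hist1h2ad, Hist1h2af, Hist2h2ab and 2 rows of Hist2h2aa1, beside 1.61% of all rows. In each of them the highest library was at least 2 times the lowest. With the block and the DMSO numbers crossed, and also without the filter on low counts, the Hist1h2ad row Gm44359 was called for the combination against olaparib and for the interaction.

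The rows that carry the histone genes' names were low, and 48 of 70 passed the filter. The highest of them were linker histone genes. Hist1h1c measured 213 and 252 CPM (DMSO), 221 and 146 (olaparib), 232 and 142 (EZM8266) and 224 and 169.6 (combination). Hist1h1e measured 188 and 210.0 CPM (DMSO), 184 and 149 (olaparib), 191 and 106 (EZM8266) and 196 and 114 (combination). In both, EZM8266 replicate 2 was the lowest library and DMSO replicate 2 the highest. Hist1h1d had a mean of 94.8 CPM, Hist1h1a of 57.1 and Hist1h1b of 40.5. Among the core histone genes Hist1h3c (45.4), Hist1h3f (43.9) and Hist1h4d (39.1) were the highest, and Hist1h3c and Hist1h3f stood above Hist1h1b. The exons of an H1 gene are longer. Relative to unscaled library totals, the median per kilobase was 63.4 CPM for H1, 30.9 for H4 and 20.5 for H3 rows. It was 16.5 for H2B and 11.2 for H2A rows. Families also differed in the share of a transcript's runs of bases, counted as for the windows, that is unique among annotated transcripts. The median share was 98.9% for H1, 60.5% for H4, 54.7% for H2B, 38.0% for H3 and 26.8% for H2A genes. Whether the family order of the levels rests on this share was not tested.

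**Figure D3:**
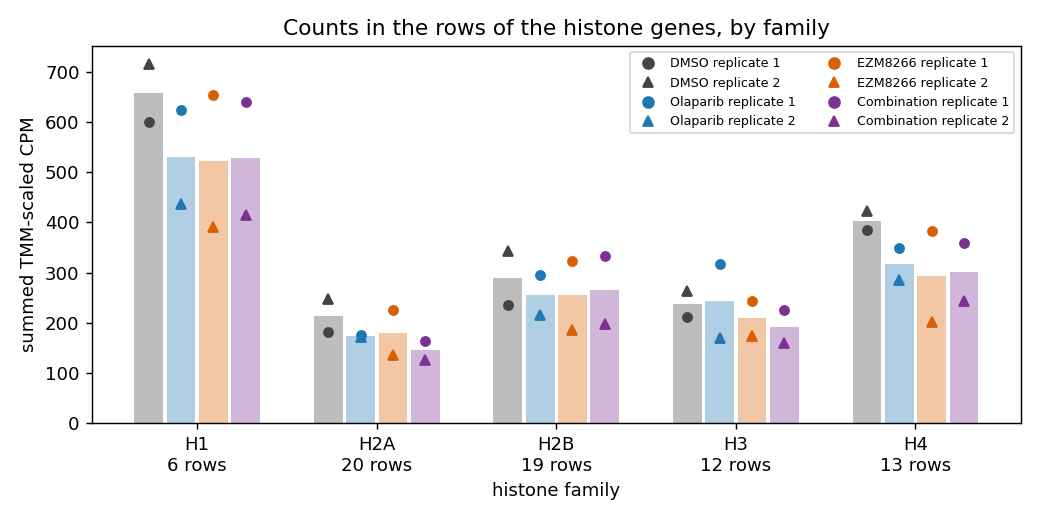
Summed TMM-scaled CPM (y) of the rows named for histone genes, by family (x). Bars are group means, points are libraries, colour is the treatment and shape the replicate. In the H1 family the libraries run from 391 to 716, and replicate 2 of the olaparib, EZM8266 and combination groups lies below replicate 1.

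No row of the histone genes was called in any of the 3 comparisons against DMSO, but most values were below 0. The median log2 fold change of the 48 rows was -0.26 for olaparib, -0.29 for EZM8266 and -0.34 for the combination. Above 0 were 10, 9 and 10 rows, beside 48.4%, 47.2% and 47.0% of all rows. At an unadjusted p under 0.05 there were 2, 1 and 5 rows, all lower, beside 0.988%, 2.48% and 2.04% of all rows. Both treated libraries lay below both DMSO libraries in 14, 11 and 16 of 48 rows, beside 15.6%, 15.6% and 18.8% of all rows. They lay above them in 3, 1 and 2 rows, beside 15.1%, 16.2% and 17.1%.

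These medians rested on single libraries. With EZM8266 the median was -0.81 without EZM8266 replicate 1 and -0.01 without EZM8266 replicate 2. With the combination it was -0.70 without combination replicate 1, -0.11 without combination replicate 2 and -0.09 without DMSO replicate 2. With olaparib it was -0.43 without olaparib replicate 1, -0.04 without olaparib replicate 2 and -0.08 without DMSO replicate 2. EZM8266 replicate 2 was the lowest library in 25 of the 48 rows and combination replicate 2 in 13, and DMSO replicate 2 was the highest in 15.

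A measure of strand leakage was set beside the share of counts in the rows of the histone genes. It takes Rmrp, an abundant RNA, and divides its row by the sum of its row and the row of Ccdc107 on the other strand. It was 1.24% and 1.68% (DMSO), 1.53% and 1.42% (olaparib), 1.55% and 1.04% (EZM8266) and 1.44% and 1.21% (combination). The rows of the histone genes took 0.156% and 0.192%, 0.148% and 0.130%, 0.187% and 0.112%, and 0.155% and 0.120% of all counts in the same order. DMSO replicate 2 was the highest and EZM8266 replicate 2 the lowest library in both. EZM8266 replicate 1 was the next highest and combination replicate 2 the next lowest in both. Among the rest the order differed. DMSO replicate 1 had a lower leakage share than both olaparib libraries and a higher share in the rows of the histone genes. Whether leakage sets the share in these rows was not tested. With the leakage share as a covariate, a setting added after the data were seen, the medians of the 48 rows were -0.22, -0.11 and -0.16, and no row was called.

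**Figure D4:**
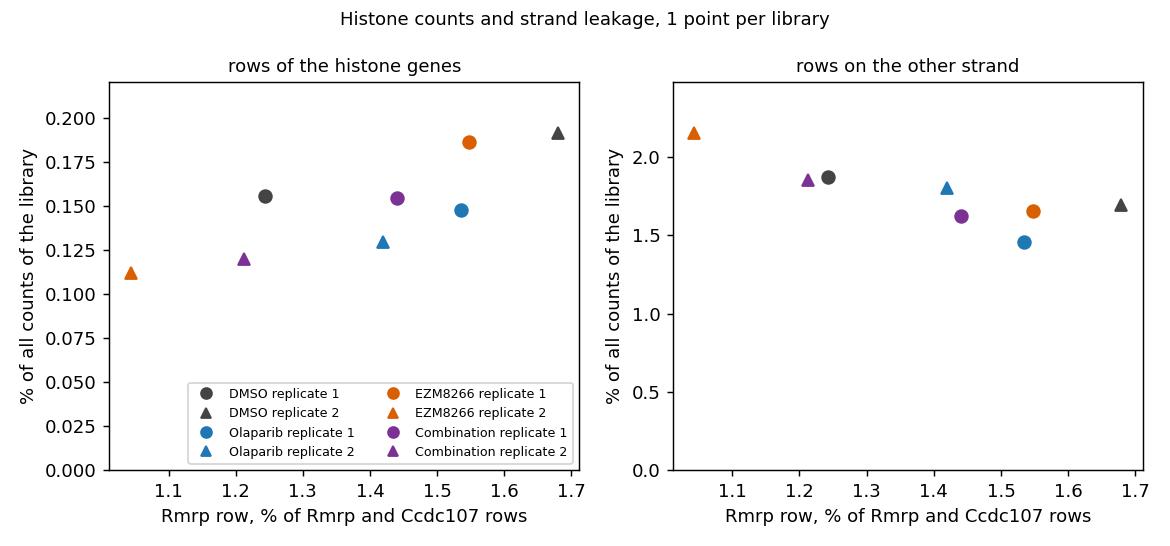
Percent of a library's counts in the rows of the histone genes (left y) and in the rows on the other strand (right y) against the leakage share in percent (x), 1 point per library. EZM8266 replicate 2 has the lowest leakage share, the lowest left value and the highest right value.

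The opposite rows took their highest share in the same library. EZM8266 replicate 2 was the highest library in 16 of the 22 tested opposite rows, so the median with EZM8266 was -0.20 without that library and 0.29 without EZM8266 replicate 1. The median with olaparib was 0.07 without DMSO replicate 1 and -0.15 without DMSO replicate 2. In DMSO replicate 1 and olaparib replicate 2 the satellite repeat row Gm10800 held 23746 and 22517 counts, against at most 4277 in the other 6 libraries. Without these 2 libraries the opposite medians were 0.05, 0.20 and 0.00.

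An unadjusted p under 0.05 against DMSO was found in 5 histone gene rows, each of them with the combination. Hist2h2ac, an H2A gene, measured 29.4 and 38.3 CPM (DMSO), 19.9 and 14.6 (olaparib), 29.5 and 7.96 (EZM8266) and 14.1 and 9.75 (combination). Both DMSO libraries were above both olaparib and both combination libraries, and EZM8266 replicate 1 lay among the DMSO values. The log2 fold change with the combination was -1.52 ± 0.49 (unadjusted p = 0.00895, adjusted p = 0.628, edgeR). With the replicate number as a block and the DMSO numbers crossed, this row was called.

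The histone strand of Hist2h2ac, read by the window Gm44492, measured 464 and 487 CPM (DMSO), 411 and 394 (olaparib), 335 and 556 (EZM8266) and 407 and 464 (combination). Its log2 fold change with the combination was -0.13 ± 0.19, with an interval of -0.53 to 0.28, which overlaps the interval of -2.58 to -0.45 of the gene's own row. For Hist1h2ag, the own row measured 15.7 and 16.1 CPM (DMSO), 10.3 and 12.2 (olaparib), 12.1 and 7.96 (EZM8266) and 7.05 and 5.85 (combination), with DMSO above the other groups. The log2 fold change with the combination was -1.29 ± 0.48 in that row (adjusted p = 0.805, edgeR) and 0.11 ± 0.15 in the window on the histone strand (Gm44486). The difference between the 2 readings was not tested.

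Hist1h4d, a gene for H4, measured 57.8 and 59.3 CPM (DMSO), 39.0 and 26.8 (olaparib), 45.4 and 22.9 (EZM8266) and 37.3 and 24.4 (combination). Both DMSO libraries were above all 6 treated libraries. The log2 fold changes were -0.82 ± 0.31 for olaparib, -0.75 ± 0.32 for EZM8266 and -0.93 ± 0.33 for the combination (adjusted p of 0.999, 0.825 and 0.737, edgeR). The opposite strand of this gene has no row, so its transcript level was not measured. Hist4h4, the H4 gene of chromosome 6, had -1.27 ± 0.52 and Hist1h2bf, an H2B gene, -1.43 ± 0.55 with the combination (adjusted p of 0.968 and 0.861, edgeR).

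The genes that make, process and carry histones were read in the same 2 ways. In this and the following lists, a row opposite a gene shares at least 50 exon bases with it. The level given is that of the whole row and not of the listed gene alone. Of 20 genes for histone mRNA processing and transcription, 6 own rows and 10 opposite rows were tested and none was called in any comparison. The row opposite Pou2f1, which encodes the factor OCT1 that acts at histone H2B promoters, is Cd247 and had a mean of 403 CPM. The row opposite Cstf2, a subunit of the cleavage complex, is Nox1 and had 215 CPM. The row opposite Slbp (Gm10459), which encodes the protein that binds the stem-loop, was picked out after its values were seen and had group means of 83.2 ± 1.48 CPM (DMSO, SD, n = 2), 87.7 ± 23.1 (olaparib), 93.2 ± 31.3 (EZM8266) and 77.1 ± 15.0 (combination).

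Of 21 histone chaperone genes, 13 own and 7 opposite rows were tested and none was called. Their highest rows were Gm26722, opposite Rbbp4, a histone-binding subunit of several chromatin complexes, at 989.7 CPM, and Rpgrip1, opposite Supt16, a subunit of the FACT chaperone, at 765 CPM. The S phase list (21 own and 11 opposite rows of 38 genes), the mitosis list (7 and 2 of 15) and the list of p53 targets (2 and 0 of 15) held no call either. In the S phase list the row opposite the flap endonuclease gene Fen1 (Gm10143) had a mean of 1907 CPM, with log2 fold changes of 0.03, 0.04 and 0.05 with olaparib, EZM8266 and the combination. The own row of the clamp loader gene Rfc5 had 1312 CPM and overlaps Wsb2 on the other strand. For mitosis the row opposite Plk1 (Gm44985) had 222 CPM and the own row of Mki67 104 CPM. For p53 targets the own rows of Plk2 and Trp53inp1 had 11.4 and 8.15 CPM.

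Among 13 replication-independent histone genes, which are expressed outside S phase, 7 own and 7 opposite rows were tested. Of these, 1 opposite row was called, in the average effect of EZM8266, beside 0.658% of all rows. Gm49544, opposite the linker histone gene H1f0, measured 586 and 497 CPM (DMSO), 553 and 622 (olaparib), 760.4 and 1090.2 (EZM8266) and 868 and 1012 (combination). The 4 libraries with EZM8266 were above the 4 without it. The average effect of EZM8266 was 0.73 ± 0.12 on the log2 scale (SE, adjusted p = 0.0115, edgeR), and EZM8266 against DMSO alone had 0.77 ± 0.17 (adjusted p = 0.140). For this row too, EZM8266 and the block of sample numbers cannot be told apart. The 22 tested rows opposite replication-dependent histone genes, read in the same libraries, had average effects of EZM8266 between -0.50 and 0.62 with no call. The row opposite H2afx (Gm44335), the H2A gene whose product is phosphorylated at DNA breaks, was picked out after its values were seen and had 1207 ± 159 CPM (DMSO, SD, n = 2), 1272 ± 117 (olaparib), 1127 ± 355 (EZM8266) and 1148 ± 96.6 (combination).

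The cell label could not be checked on most marker genes, because a gene's own row counts mainly the other strand and few markers have an opposite row. Gm36026, opposite the epithelial keratin gene Krt8, held 196 to 362 counts per library. The row opposite Krt7 held at most 2 counts, that opposite the T cell gene Cd3e 0, and the 2 rows opposite the fibroblast gene Pdgfra together at most 1. Own rows, which do not check the label, summed to 50 to 178 counts for 8 mesothelial and ovarian surface epithelial markers. They summed to 46 to 240 for 6 fibroblast markers, of which Col1a1 alone held 42 to 235. Sums were 1 to 13 for 6 leukocyte markers, 1 to 6 for 4 endothelial markers and 0 to 1 for 3 adipocyte markers.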

How the data were processed

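RNA from 8 libraries of ID8-OR cells, 4 groups of 2, was depleted of ribosomal RNA and read as pairs of 150 bases, per the labels' protocols. The deposited values are raw counts of fragments, 1 whole number per row and library. HISAT2 2.1.0 and Subread 1.6.2 are named in the submitters' processing notes. Read pairs were counted by featureCounts, per the file headers, over exons of GENCODE M18 genes on mm10 with strand setting 1, and a fragment could count for every row it overlapped. The input names mark the alignments as unique, and how that was done is not given in the sources used here. GENCODE M21 gave symbols for 54079 of 54146 rows, exon overlaps and transcript sequences.

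Tests used edgeR 4.0.16 in R 4.3.3 (quasi-likelihood F test, TMM scaling, filterByExpr at 10 counts, or 15 in total), 1 fit of 4 group means over all 8 libraries, with Benjamini-Hochberg adjustment over the 6379 rows kept. The script was tested on simulated data. There were 8 comparisons, and the average effect of a compound is the mean of its 2 contrasts. Levels are TMM-scaled CPM with the SD. Intervals are 95%, and a floor of 3 counts covers counting error only. Named rows were the 8 highest histone gene rows, those with an unadjusted p under 0.05 against DMSO, every opposite row, and from each list the called rows or else the 2 highest, with added rows marked as such. The members and lists were chosen with earlier results of these data known. Uniqueness was counted over runs of 50 bases. Other settings were DESeq2 1.42.0, other scalings and filters, a replicate block, fits of the groups compared, a robust fit, left-out libraries and a minimum overlap of 200 bases. Covariates for leakage and a crossed block were added after the data were seen.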

Additional observations from a re-analysis of the deposited data

How the results depend on the processing

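No member row was called in any of the 8 comparisons, and of 306 alternatives for these counts 9 moved from 0. Without a filter on low counts, 1 opposite row was called for olaparib against DMSO, 1 for EZM8266 against the same libraries, 1 for the combination against olaparib, 2 for the interaction and 1 for the average effect of EZM8266. These calls were of Gm44359 (opposite Hist1h2ad) and Gm47313 (opposite Hist2h2aa1), and the cause was not tested. The counts stayed at 0 with DESeq2, the other scalings, the filter of 1 CPM in 4 libraries, the robust fit, the fits of the groups compared, the leakage covariate, and without each library in turn (range 0 to 0). No call of a named row was reversed in direction.

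The replicate numbers were not taken to pair the libraries, because same-numbered libraries deviated together among the treated groups but not between these and DMSO. Deviations of same-numbered libraries from their group means had correlations of -0.31, -0.32 and -0.15 between DMSO and the olaparib, EZM8266 and combination groups, and of 0.22 to 0.29 among the treated groups. With the replicate block 0 member rows were called in each comparison. With the DMSO numbers crossed in the block, a setting added after the data were seen, the EZM8266 comparison with DMSO called 3 opposite rows, that of the combination with olaparib 1 and the interaction 1, and 1 histone gene row for the combination against DMSO.

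With 2 libraries a group and at most 1680974 counts each, the standard error of an opposite row had a median of 0.19 on the log2 scale and that of a histone gene row 0.42 to 0.44 against DMSO. Whether the counts of the identical H2A windows come from single genes cannot be told here. The treatment of fragments with several equal matches is not given, and the counts keep no positions within a row.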
